A study of Bos taurus with 8 samples.

Results

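The genes described here are neurotrophins, the receptors that bind them and components of myelin, in preadipocyte clones of cattle. Of the 8 genes listed by symbol (*BDNF*, *NTF3*, *NGFR*, *NTRK2*, *NTRK3*, *SORT1*, *MBP* and *PMP22*), 7 were measured, among 18871 named genes in all, and *NTF3* was not analysed here. All 7 reached the minimum of 20 counts summed over the clones that testing required. RNA-seq was performed on 8 clones from adult male Angus-cross cattle (steers), 4 grown from the stromal vascular fraction (SVF) of intramuscular fat (IMF1 to IMF4) and 4 from that of subcutaneous fat (SF1 to SF4). The IMF had been dissected out of *longissimus dorsi* muscle. By the study's account each clone was expanded from a single SVF cell after limiting dilution, which was not tested here. Clones had been picked for a shape like that of fibroblasts and for how well they formed adipocytes and multiplied. Each is therefore a selected sample and does not stand for its depot. All clones were grown in the same serum-containing medium, with no treatment that differed between the groups. The study's methods place RNA extraction before confluence, whereas the deposited design text places adipogenic induction before sequencing. The question was how IMF and SF preadipocyte clones differ in gene expression.

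Neurotrophins are secreted growth factors, made as precursors, that keep neurons alive and shape their connections. BDNF binds the receptor tyrosine kinase TrkB (*NTRK2*), NT-3 (*NTF3*) binds TrkC (*NTRK3*), and all of them bind NGFR, a receptor of the tumor necrosis factor receptor family. Sortilin (*SORT1*) sorts proteins in the secretory pathway and is a co-receptor of NGFR for the precursors. These genes are also used outside the nervous system: NGFR marks some mesenchymal progenitor cells, and BDNF is made by skeletal muscle cells. MBP and PMP22 are proteins of the myelin sheath, yet the *MBP* locus also gives longer golli transcripts in cells that make no myelin, and *PMP22* was first cloned as a gene of growth-arrested fibroblasts.

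Total counts on named genes were 19654917 to 29308882 in IMF and 19979899 to 24868233 in SF. Levels are given as CPM, counts relative to the TMM-normalized library size, or, between genes, as TPM, which also divides by gene length. A count of 3, taken as the smallest level the depth could show, equaled between 0.0981 and 0.165 CPM, and such floors cover counting error only. To pass the threshold, a gene needed a log2 fold change (IMF minus SF) of 1 or more in size together with a Benjamini-Hochberg adjusted p below 0.05, in edgeR's quasi-likelihood test over 18339 genes. The p-values measure the spread between these clones. Of all genes tested, 1618 (8.82%) passed, 54.2% of them higher in IMF. With DESeq2 that share was 48.9%, and with edgeR without IMF1 it was 49.2%. Scaling by total counts alone moved that share to 66.7% and shifted the median gene from -0.03 to 0.12 on the log2 scale. The 7 genes described here kept their directions under that scaling.

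*BDNF*, *NGFR* and *NTRK2* were expressed at lower levels in the IMF clones than in the SF clones, with log2 fold changes from -1.97 to -1.65. *MBP* was higher in IMF, with no count in any SF clone, and *NTRK3*, *SORT1* and *PMP22* did not pass the threshold. By edgeR, 4 of the 7 genes passed, beside 8.82% of all genes tested. Of these, 3 were lower in IMF (4.04% of all genes) and 1 was higher (4.78% of all genes). With no limit on the fold change, 5 of the 7 had an adjusted p below 0.05 (25.8% of all genes), 4 of them lower in IMF (11.4% of all genes). In 5 of the 7 the groups did not overlap in CPM (32.1% of all genes), and in 4 of these IMF was the lower group (14.1% of all genes). The 7 genes had a median log2 fold change of -1.28, against -0.03 over all genes tested. Each clone is a bulk sample, so fewer expressing cells and less RNA per cell cannot be told apart.

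**Figure D1:**
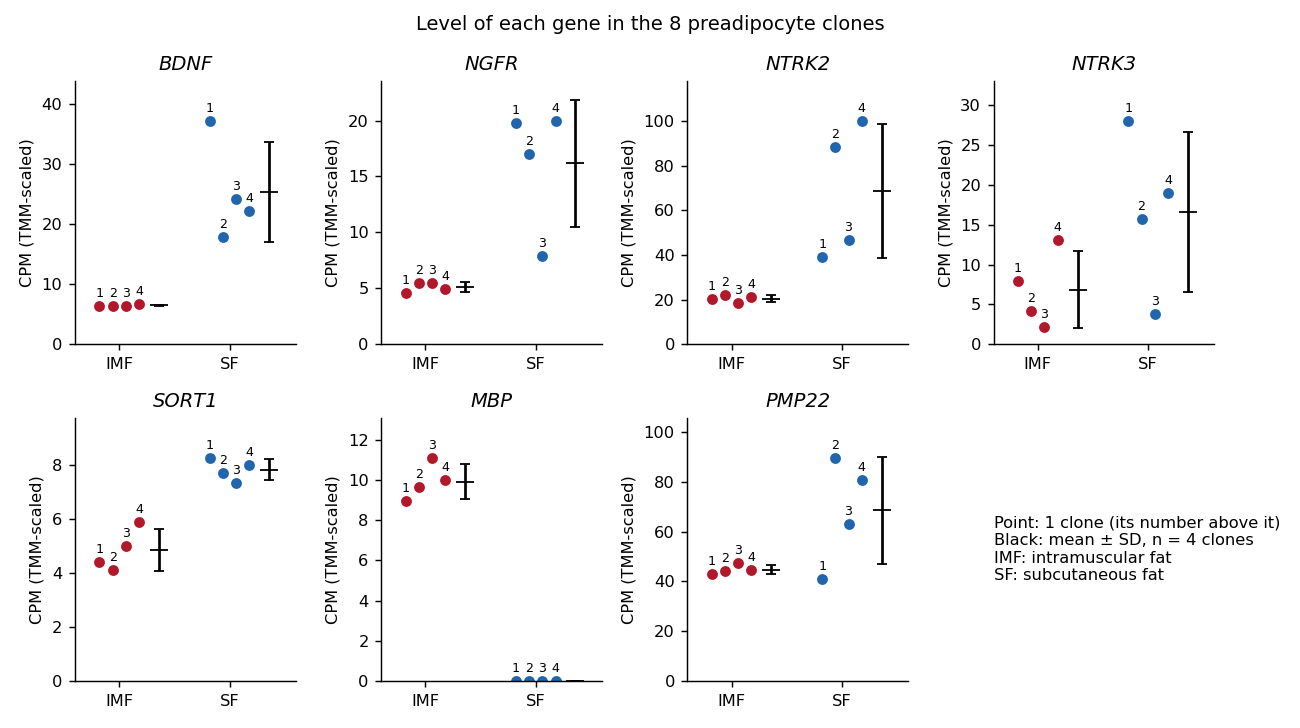
Level in CPM (TMM-scaled, linear axes from 0) of the 7 genes in the 4 IMF clones (red) and the 4 SF clones (blue), each point labelled with its clone number, with the mean ± SD in black. The groups do not overlap for *BDNF*, *NGFR*, *NTRK2*, *SORT1* and *MBP*, and they overlap for *NTRK3* and *PMP22*.

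The ligand *BDNF* (chromosome 15, 58382886 to 58445297 in ARS-UCD2.0) had 132, 197, 142 and 140 counts in IMF1 to IMF4 and 724, 356, 595 and 403 counts in SF1 to SF4. The IMF clones were nearly alike, from 6.33 to 6.66 CPM, and every SF clone lay above them, from 17.8 CPM in SF2 to 37.2 CPM in SF1. The IMF clones averaged 6.47 ± 0.139 CPM and the SF clones 25.3 ± 8.32 CPM (SD, n = 4 each), a 3.91-fold higher level in SF. The log2 fold change was -1.97 ± 0.21 (SE), with an adjusted p of 0.000385 in edgeR's quasi-likelihood test. *BDNF* still passed when the null hypothesis was a change of up to 1 on the log2 scale (adjusted p = 0.00695, edgeR).

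*NTF4*, the ligand neurotrophin 4, which shares the receptor of BDNF, did not pass. It averaged 3.61 ± 1.17 CPM over the IMF clones and 4.05 ± 1.01 CPM over the SF clones (SD, n = 4 each; log2 fold change -0.16, 95% interval from -0.84 to 0.52, adjusted p = 0.732, edgeR). The sign of *NTF4* turned without IMF4 (0.04) and with total counts alone (0.0020).

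*NTRK2* (chromosome 8, 77953425 to 78364906), which encodes the receptor of BDNF and neurotrophin 4, had 426, 670, 408 and 443 counts in IMF1 to IMF4 and 763, 1765, 1157 and 1816 counts in SF1 to SF4. In CPM, the IMF clones ranged from 18.5 to 21.9, while the SF clones fell into a lower pair, SF1 at 39.2 and SF3 at 47.0, and a higher pair, SF2 at 88.3 and SF4 at 100.1. Even the lower pair lay above all IMF clones. The IMF clones averaged 20.5 ± 1.45 CPM and the SF clones 68.6 ± 30.1 CPM (SD, n = 4 each). The SF level was 3.35-fold higher, with a log2 fold change of -1.74 ± 0.29 (SE) and an adjusted p of 0.00345 in edgeR's quasi-likelihood test. Receptors with and without the kinase domain come from this gene, and counts per gene do not separate them.

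*NGFR* (chromosome 19, 37093168 to 37112123), the receptor shared by all neurotrophins, had 96, 167, 121 and 104 counts in IMF1 to IMF4 and 386, 340, 194 and 362 counts in SF1 to SF4. SF1, SF2 and SF4 were alike, from 17.02 to 19.9 CPM, and SF3, at 7.87 CPM, was nearer to the IMF clones, which ranged from 4.61 to 5.49 CPM. The average was 5.13 ± 0.426 CPM over IMF and 16.2 ± 5.69 CPM over SF (SD, n = 4 each), 3.14-fold higher in SF, and the log2 fold change was -1.65 ± 0.28 (SE; edgeR's quasi-likelihood test, adjusted p = 0.00321). With a null hypothesis of a change of up to 1 on the log2 scale, neither *NGFR* (adjusted p = 0.129) nor *NTRK2* (adjusted p = 0.104) passed with edgeR.

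*SORT1* (chromosome 3, 34037344 to 34104705) had 92, 126, 110 and 124 counts in IMF1 to IMF4 and 161, 154, 181 and 145 counts in SF1 to SF4. The highest IMF clone (IMF4, 5.90 CPM) lay below the lowest SF clone (SF3, 7.34 CPM), and the SF clones were close together, up to 8.26 CPM. The difference was larger than the spread between clones but below the fold-change threshold, with 4.86 ± 0.784 CPM over the IMF clones and 7.83 ± 0.393 CPM over the SF clones (SD, n = 4 each). The log2 fold change was -0.69 ± 0.14 (SE; adjusted p = 0.00856, edgeR). As a share of the summed TPM of *NGFR* and *SORT1*, *NGFR* took 69.5% ± 3.99 in IMF and 80.1% ± 6.94 in SF (two-sided exact permutation test, p = 0.0857, n = 4 each, 0.171 after Benjamini-Hochberg adjustment over the 2 shares tested). The difference of -10.6 percentage points moved to -14.1 without SF3, the 1 SF clone that overlapped the IMF clones in this share. Its removal separates the groups by construction, which gives the smallest exact permutation p possible (0.0286), and leaving out any of the other 7 clones gave an exact permutation p from 0.0857 to 0.171.

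*NTRK3* (chromosome 21, 18820863 to 19260227), the receptor of neurotrophin 3, was the least even of the 7 genes. It had 166, 126, 48 and 276 counts in IMF1 to IMF4 and 546, 314, 94 and 344 counts in SF1 to SF4. The groups overlapped: SF3, at 3.81 CPM, lay below IMF1 (7.96), IMF2 (4.12) and IMF4 (13.1), and the highest clone was SF1, at 28.0 CPM. The highest clone was 6.04-fold above the lowest within IMF and 7.35-fold above the lowest within SF. The log2 fold change of -1.28 did not pass (SE 0.66, 95% interval from -2.79 to 0.23, adjusted p = 0.195, edgeR), and with 1 clone left out it ranged from -1.81 (without IMF4) to -0.91 (without SF1). All 8 counts of *NTRK3* are even numbers, as in 2.37% of the 14333 genes with at least 10 counts in every clone. Whether this bears on its values was not tested beyond halving such counts, which gave a log2 fold change of -1.30 (adjusted p = 0.191, edgeR).

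*NTRK2* made up most of the Trk receptor TPM measured in both groups, 81.4% ± 10.6 in IMF and 83.9% ± 12.8 in SF (SD, n = 4 each). The ranges, from 68.4% to 92.0% in IMF and from 65.3% to 94.3% in SF, overlapped almost wholly (difference -2.49 percentage points, two-sided exact permutation test, p = 0.8286, also 0.8286 after adjustment). With 1 clone left out the difference ranged from -8.69 to 1.85 percentage points, and it turned sign without IMF4 (1.85) and without SF3 (0.977). The lowest share was in SF1, which had the most *NTRK3*, and the highest in SF3, which had the least among the SF clones.

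**Figure D2:**
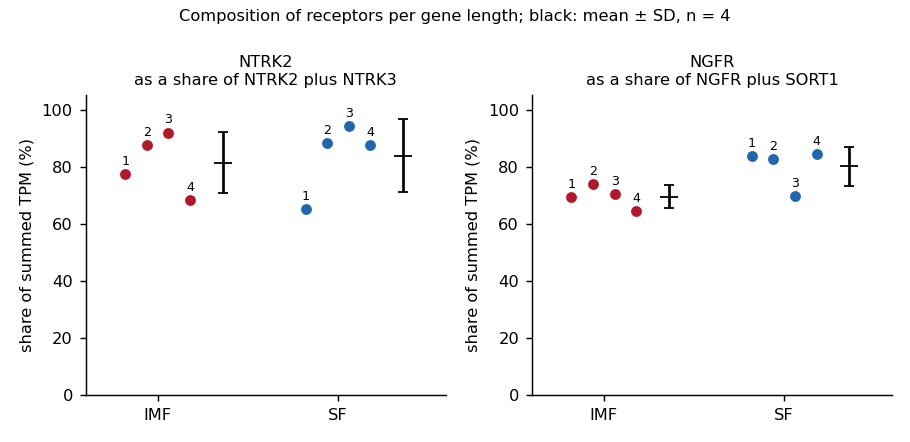
Share in percent of the summed TPM taken by *NTRK2* (of *NTRK2* and *NTRK3*, left) and by *NGFR* (of *NGFR* and *SORT1*, right) in each clone, with clone numbers and the mean ± SD in black. The groups overlap in both, and the *NGFR* share of SF3, 69.8%, lies among the IMF clones while the other SF clones reach 82.6% to 84.3%.

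**Figure D3:**
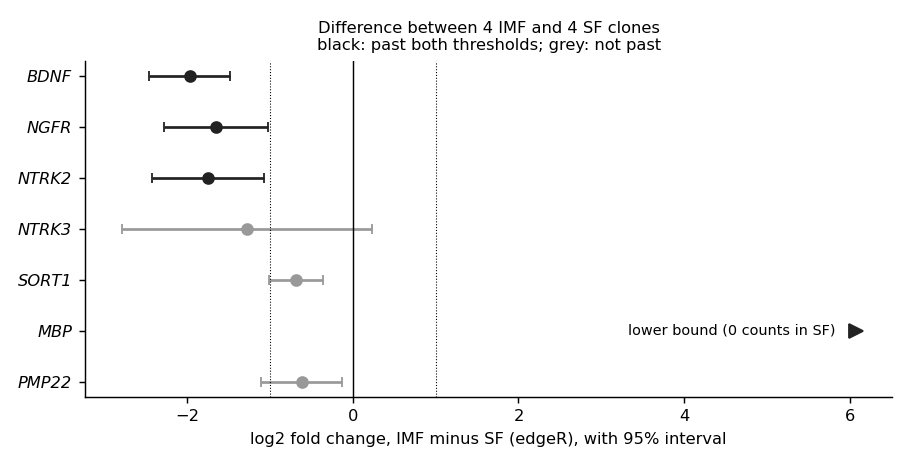
Log2 fold change between the 4 IMF and the 4 SF clones (x axis, IMF minus SF) with its 95% interval for each gene, black where both thresholds were passed and grey where not, with dotted lines at -1 and 1. *BDNF*, *NGFR* and *NTRK2* lie below -1 with their whole intervals, the interval of *NTRK3* runs from -2.79 to 0.23, and *MBP* is drawn as a lower bound because its SF counts are all 0.

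*MBP*, encoding myelin basic protein (chromosome 24, 2224135 to 2328579), had 187, 295, 245 and 210 counts in IMF1 to IMF4 and 0 counts in all 4 SF clones. The IMF clones were close together, from 8.97 to 11.1 CPM, and no SF clone gave a read, which allows a level of at most 0.122 to 0.165 CPM. Against a floor of 3 counts in each SF clone, *MBP* was at least 67.2-fold higher in IMF (9.93 ± 0.892 CPM, SD, n = 4), with an adjusted p of 2.99e-05 by edgeR. It passed the threshold in all 20 alternatives, with an adjusted p of at most 0.00914. RefSeq places 3 long noncoding RNA genes of ARS-UCD2.0 within the span of *MBP*, and the study's methods describe a non-stranded library while the labels describe a strand-specific one, so reads of these genes may have been counted with *MBP*. The same holds for *NTRK2* and *PMP22*, each overlapped by 1 such gene. Classic and golli transcripts cannot be told apart in counts per gene.

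Of the 6 protein-coding genes nearest to *MBP*, 3 were tested and none passed the threshold with edgeR. The closest, *ZNF236*, 5597 bases away, averaged 24.2 CPM in IMF against 21.6 CPM in SF (log2 fold change 0.17, adjusted p = 0.0907, edgeR). *ZNF516* had a log2 fold change of 0.56 (adjusted p = 0.0554, edgeR) and *TSHZ1*, farther along, one of -0.55 (adjusted p = 0.012, edgeR), below the fold-change threshold. These genes were chosen by position after the values of *MBP* were seen.

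*PMP22* (chromosome 19, 32755620 to 32784039), encoding peripheral myelin protein 22, had the highest TPM of the 7 genes in both groups. It had 893, 1344, 1044 and 940 counts in IMF1 to IMF4 and 798, 1790, 1556 and 1466 counts in SF1 to SF4. SF1, at 41.0 CPM, lay just below the IMF clones (42.8 to 47.3 CPM), and the other 3 SF clones lay above them, from 63.1 to 89.6 CPM. The log2 fold change of -0.62 did not pass (SE 0.21, 95% interval from -1.11 to -0.13, adjusted p = 0.0663, edgeR). Without SF1 it was -0.80 with an adjusted p of 0.00229 (edgeR), still short of the fold-change threshold. DESeq2 gave an adjusted p of 0.0262 with all clones.

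Ranked by TPM, *PMP22* came first in the IMF clones (38.3 ± 3.67 TPM, SD, n = 4), followed by *MBP* (5.86 ± 0.774), *BDNF* (4.68 ± 0.278), *NGFR* (2.56 ± 0.27), *NTRK2* (2.07 ± 0.0831), *SORT1* (1.12 ± 0.175) and *NTRK3* (0.507 ± 0.341). Every IMF clone had this order, although the ranges of *SORT1* and *NTRK3* overlapped. In the SF clones *PMP22* was also first (58.1 ± 19.9 TPM) and *BDNF* second (18.02 ± 5.72). *NGFR* (7.87 ± 2.56 TPM) and *NTRK2* (6.82 ± 2.86) did not differ beyond their spread, with *NGFR* ahead in 1 of 4 SF clones, nor did *SORT1* (1.79 ± 0.134) and *NTRK3* (1.22 ± 0.716). The gene lengths deposited by the authors, 16450 bases for *NTRK2* and 22153 for *NTRK3*, are far above the 2304 bases of *BDNF*, and the TPM of both receptors depends on which of their transcripts are present, which counts per gene do not show.

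The spread between clones was also unequal. The coefficient of variation of CPM was 2.15% in IMF against 32.8% in SF for *BDNF*, 7.1% against 43.8% for *NTRK2*, and 4.27% against 31.3% for *PMP22*. It was larger in SF for 4 of the 6 genes detected in both groups, and larger in IMF for *NTRK3* (70.5% against 60.2%) and *SORT1* (16.2% against 5.02%). Among the 10948 genes that averaged 100 or more counts in each group, its median was 6.6% in IMF and 13.4% in SF, and 74.7% of the genes varied more among the SF clones.

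As a description, the genes whose log2 CPM followed each of the 4 genes past the threshold most closely over the 8 clones were sought among 8716 or more genes with a mean of at least 10 CPM. For *BDNF* these were *PEA15* (Pearson r = 0.997), *MFHAS1* (0.996) and the collagen gene *COL1A2* (0.995). *NGFR* was followed by *SLC6A17* (0.994), *UGGT2* (0.986) and *NOL3* (0.980), and *NTRK2* by *ADAMTS20* (0.989), *TMEM192* (0.983) and *PRADC1* (0.981). *MBP* was followed by *CBLN4*, *CD93* and *PDGFB*, each at 0 CPM in every SF clone like *MBP* itself, with r = 0.9998, 0.9997 and 0.9997. The 8 points share the difference between the groups, and r exceeded 0.9 for 297 genes (*NTRK2*) to 996 genes (*MBP*).

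Other genes of the pathway were taken from lists, to be read beside the 8.82% of all genes that passed. Of 20 Trk adaptor and signalling genes tested, 0 passed in edgeR's test (5 had an unadjusted p under 0.05, DESeq2 called 0 and limma-voom 1), and their median was -0.07 on the log2 scale, against -0.03 for all genes. *KIDINS220*, a scaffold that Trk receptors and NGFR bind, had a log2 fold change of -0.76 (adjusted p = 0.00181, edgeR) and *PIK3R1*, a regulatory subunit of phosphoinositide 3-kinase, one of -0.70 (adjusted p = 0.0368, edgeR), both short of the fold-change threshold and both named after their values were seen. Of 12 partners and proteases of NGFR, 0 passed with edgeR (3 at an unadjusted p under 0.05, 0 with DESeq2 and 0 with limma-voom), with a median of 0.09. *BEX3* (log2 fold change 0.89, adjusted p = 0.0114, edgeR) and *TRAF4* (0.52, adjusted p = 0.0106) were higher in IMF but short of the fold-change threshold. Both were named after their values were seen. Of 5 further family members, 0 passed with edgeR (1 at an unadjusted p under 0.05, 0 with DESeq2, 1 with limma-voom), with a median of -0.70. The gene with that unadjusted p was *SORL1*, a sorting receptor related to sortilin, named after its values were seen (log2 fold change -0.86, adjusted p = 0.0375, edgeR). It passed without IMF1 (-1.12) and with limma-voom (-1.004).

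Of 9 genes for the processing and secretion of proneurotrophins, edgeR called 1, while DESeq2 and limma-voom each called 2. With edgeR *CADPS2*, a priming factor of dense-core vesicles, passed, with 36, 53, 30 and 42 counts in the IMF clones and 0, 10, 8 and 1 in the SF clones (log2 fold change 2.9, adjusted p = 0.0277, edgeR). Its call was lost without any of the 4 IMF clones and without SF4 (adjusted p from 0.0556 to 0.0607). Of 12 early response genes, 2 passed in opposite directions. *VGF*, a secreted neuropeptide precursor known to be induced by neurotrophins, had 176, 289, 217 and 153 counts in IMF1 to IMF4 and 349, 1979, 1159 and 1427 counts in SF1 to SF4 (log2 fold change -2.79 ± 0.47, SE; adjusted p = 0.00328, edgeR). All SF clones lay above the IMF clones in CPM, with SF1 the nearest to them. *EGR1*, an immediate early transcription factor, was higher in IMF, with 12.2 ± 0.652 CPM against 4.82 ± 1.65 CPM in SF (SD, n = 4 each; log2 fold change 1.34, adjusted p = 0.0055, edgeR).

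Of 6 genes of the GDNF family, a separate family of neurotrophic factors, 2 were lower in IMF. *ARTN*, the ligand artemin, had 7, 20, 13 and 2 counts in IMF1 to IMF4 and 13, 134, 160 and 112 counts in SF1 to SF4 (log2 fold change -3.54, adjusted p = 0.0108, edgeR), and SF1 again lay nearest to IMF. It was not past the threshold with limma-voom (adjusted p = 0.145). *GFRA4*, a co-receptor, averaged 2.7 ± 0.113 CPM in IMF against 10.6 ± 6.12 CPM in SF (log2 fold change -1.97, adjusted p = 0.0049, edgeR), with the most in SF1.

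**Figure D4:**
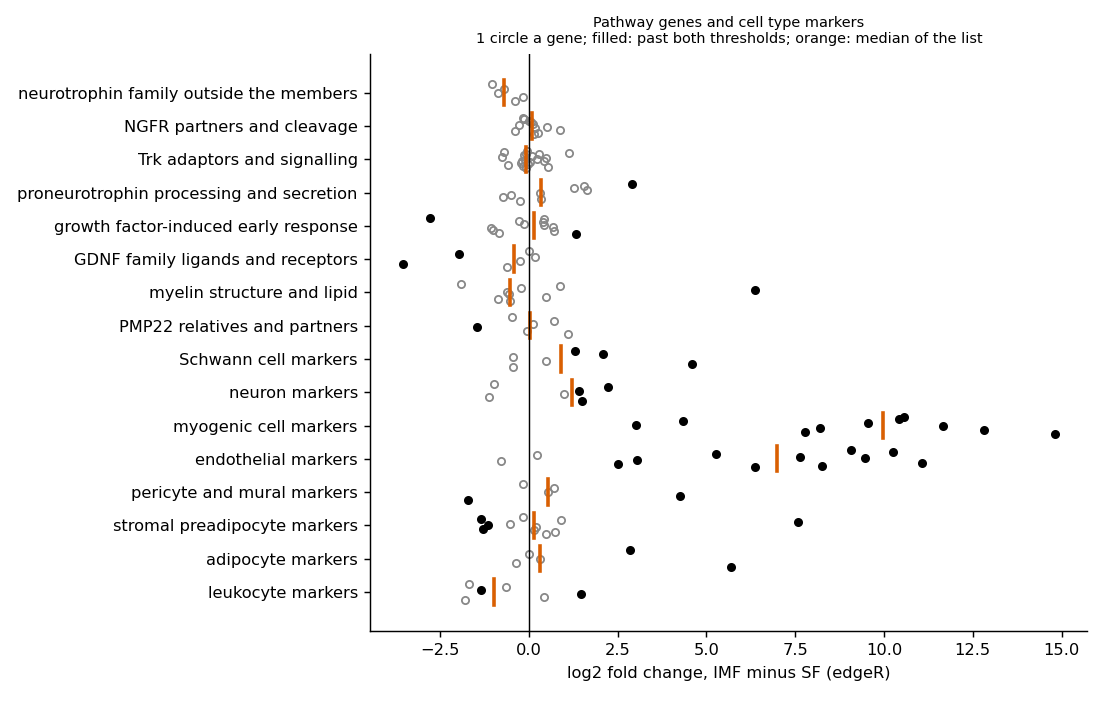
Log2 fold change (x axis, IMF minus SF) of the tested genes of each pathway and cell type list (rows), 1 circle a gene, filled where both thresholds were passed, with the list's median in orange. The Trk adaptor genes center on -0.07 with no filled circle, while myogenic and endothelial markers reach far to the right, where values of genes with 3 counts or fewer in every SF clone depend on the prior count.

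The other myelin genes did not share one direction. Of 9 myelin structure and lipid genes tested (of 20 listed), 1 passed with edgeR, *CLDN11*, a tight junction protein of central myelin and of other barriers. It had 64, 64, 57 and 48 counts in IMF1 to IMF4 against 2, 0, 0 and 0 in the SF clones, at least 16.97-fold higher (adjusted p = 0.000609, edgeR). The median log2 fold change of the 9 genes was -0.52, and DESeq2 called 2 of them and limma-voom 1. *NFASC*, named after its values were seen, had a log2 fold change of -1.90 and did not pass (95% interval from -3.48 to -0.32, adjusted p = 0.0766, edgeR). *CNP*, 2',3'-cyclic nucleotide phosphodiesterase, averaged 51.7 ± 2.39 CPM in IMF against 36.9 ± 7.04 CPM in SF (log2 fold change 0.49, adjusted p = 0.0226, edgeR). *MOG*, myelin oligodendrocyte glycoprotein, had 36, 84, 62 and 45 counts in IMF1 to IMF4 and 95, 75, 127 and 63 in SF1 to SF4 (log2 fold change -0.87, adjusted p = 0.0241, edgeR), and neither reached the fold-change threshold. Among 6 relatives and partners of *PMP22*, *EMP3*, of the same tetraspan family, passed, with 76.0 ± 7.48 CPM over the IMF clones and 208 ± 31.3 CPM over the SF clones (log2 fold change -1.46 ± 0.13, SE; adjusted p = 0.000147, edgeR). *EMP1*, of the same family and named after its values were seen, had 174 ± 8.2 CPM over the IMF clones and 80.7 ± 43.4 CPM over the SF clones, in the other direction (log2 fold change 1.11, adjusted p = 0.051, edgeR). DESeq2 and limma-voom each called 2 of the 6, *EMP1* among them, and edgeR called it without SF4 (log2 fold change 1.48, adjusted p = 0.0126).

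Markers of other cell types moved with the groups too. Of 6 Schwann cell markers tested (of 12), 3 were higher in IMF with edgeR, *NCAM1* (log2 fold change 2.10), *L1CAM* (1.31) and *ERBB3* (at least 14.9-fold). *NCAM1* is also a gene of muscle cells, and the defining factor *SOX10* was not analysed here. The summed TPM of the list lay between 40.3 and 50.5 in IMF and between 10.04 and 18.5 in SF, of which *NCAM1* gave 31.3 to 40.3 TPM in IMF and 2.96 to 13.1 TPM in SF. *CDH19* (log2 fold change -0.44, adjusted p = 0.741, edgeR) and *GFAP* (-0.45, adjusted p = 0.558) of this list did not pass, and with 1 clone left out they ranged from -1.21 (without IMF4) to -0.07 (without IMF2) and from -1.001 (without IMF4) to -0.26 (without IMF1). Of 6 neuron markers tested, *TUBB3*, *NEFH* and *RBFOX3* were higher in IMF, with log2 fold changes from 1.41 to 2.23. *SNAP25* (-1.11, adjusted p = 0.184, edgeR) and *UCHL1* (-0.97, adjusted p = 0.3) had negative values and did not pass with all clones, though *SNAP25* passed without IMF1 (-1.86, adjusted p = 0.0221) and *UCHL1* without SF2 (-1.35, adjusted p = 0.00139). The summed TPM of the list ranged from 54.9 to 67.8 in IMF and from 15.7 to 159.7 in SF, most of it from *UCHL1* (44.1 to 55.9 TPM in IMF and 10.8 to 153 TPM in SF). These 4 genes were named after their values were seen. *RBFOX3* did not pass with limma-voom (adjusted p = 0.0516), and *NEFH* did not pass without SF1, SF4 or any 1 IMF clone (adjusted p from 0.0505 to 0.0672, edgeR).

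All 10 myogenic markers tested were higher in IMF and past the threshold, with a summed TPM of 371 to 516 in IMF and of 0.438 to 14.8 in SF, and *MYOD1*, *MYOG*, *CHRNA1* and *MYMX* were at 0 counts in every SF clone. Of 12 endothelial markers, 10 were higher in IMF, with a summed TPM from 93.7 to 125 against 36.7 to 54.3. *CLDN5*, which did not pass (log2 fold change 0.24, adjusted p = 0.492, edgeR), gave most of the SF sum (32.3 to 45.4 TPM, against 34.2 to 65.7 TPM in IMF), and *FLT1* did not pass either (-0.77, adjusted p = 0.108). With 1 clone left out they ranged from 0.014 (without IMF4) to 0.39 (without IMF1) and from -0.96 (without SF3) to -0.38 (without SF1). Both were named after their values were seen. *KDR* and *EMCN* were at 0 in every SF clone. Of 5 pericyte markers 2 passed, *MCAM* higher and *CSPG4* lower in IMF (summed TPM 89.9 to 102 in IMF and 93.5 to 139 in SF), and of 11 stromal preadipocyte markers 1 was higher (*CD34*) and 3 were lower in IMF (*COL1A1*, *PPARG* and *PI16*; summed TPM 6318 to 7547 against 9231 to 12578, mostly of collagen genes such as *COL1A1*). *PDGFRA*, a defining preadipocyte marker, was detected in every clone, with 3857 to 5522 counts in IMF and 2017 to 3778 counts in SF. Its log2 fold change was 0.49 (adjusted p = 0.0214, edgeR), short of the threshold. *DLK1*, of the same list and named after its values were seen, had 66, 0, 4 and 38 counts in IMF1 to IMF4. In SF1 to SF4 it had 22, 6, 16 and 12 counts. Of 5 adipocyte markers 2 were higher in IMF (*FABP4* and *CD36*; summed TPM 29.7 to 39.9 against 4.82 to 10.6, of which *FABP4* gave 20.5 to 30.9 TPM in IMF and at most 0.897 TPM in SF). *PLIN1* (log2 fold change -0.35, adjusted p = 0.119, edgeR), *CEBPA* (0.01) and *CIDEC* (0.31) did not pass. Of 6 leukocyte markers 1 was higher (*CD14*) and 1 lower (*CD3E*; 12.9 to 26.9 against 31.5 to 44.4), and their median was -0.98. *PTPRC* (-1.79, adjusted p = 0.0518, edgeR) and *CD68* (0.43, adjusted p = 0.332) did not pass, and DESeq2 and limma-voom each called 3 of the 6. In both lists, genes that did not pass were named after their values were seen. The call was lost without SF3 or any 1 IMF clone for the myogenic marker *DES* (adjusted p from 0.0547 to 0.0769, edgeR), without IMF3 for *MCAM* (adjusted p = 0.052, edgeR), without SF1, SF4 or any 1 IMF clone for *PI16* (adjusted p from 0.0719 to 0.107), and without IMF1, IMF2, IMF3, SF1, SF2 or SF4 for *CD3E* (adjusted p from 0.0507 to 0.103). The part of these cell type differences in the results for *MBP*, *BDNF* and the receptors was not tested.

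**Figure D5:**
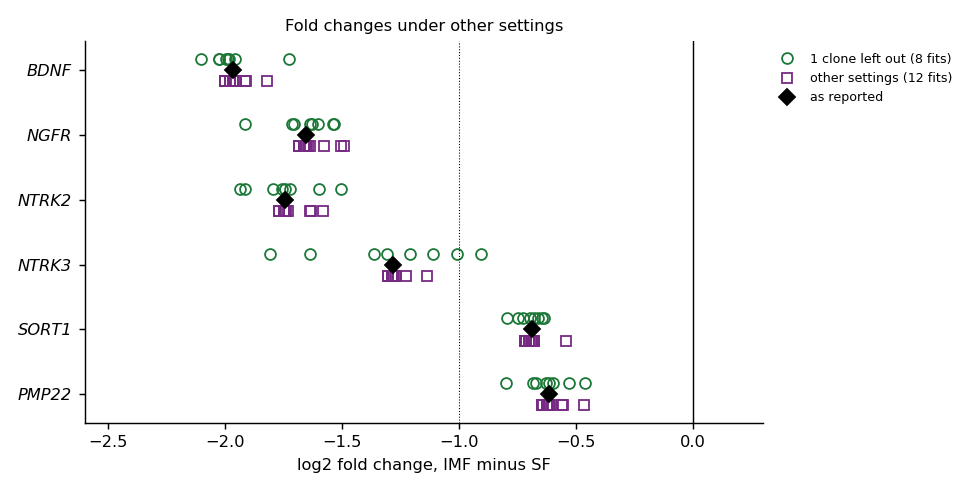
Log2 fold change (x axis, IMF minus SF) of 6 genes as reported (diamonds), with 1 clone left out (circles, 8 fits) and under other settings (squares, 12 fits), with a dotted line at -1. *BDNF*, *NGFR* and *NTRK2* stay below -1 throughout, *SORT1* and *PMP22* stay between -1 and 0, and *NTRK3* ranges from -1.81 to -0.91 as single clones are left out.

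Leaving out single clones kept 4 of the 7 genes past the threshold in each of the 8 fits. In these fits the log2 fold change ranged from -2.10 to -1.73 for *BDNF*, from -1.91 to -1.53 for *NGFR* and from -1.94 to -1.50 for *NTRK2*.

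Among the 6 nearest protein-coding neighbors of *NGFR*, *NXPH3*, which encodes a secreted neurexin ligand and lies 50110 bases away, was also lower in IMF, with 10.6 CPM against 29.6 CPM in SF (log2 fold change -1.48 ± 0.18, SE; adjusted p = 0.000642, edgeR). None of the 5 tested neighbors of *NTRK2* passed, with log2 fold changes from 0.08 to 0.40. Of the 6 neighbors of *BDNF*, with log2 fold changes from -0.12 to 1.02, *MAD2L1*, 2170452 bases away, passed narrowly, higher in IMF (1.02). Its log2 fold change fell below the threshold of 1 without IMF2, SF1 or SF2 (from 0.90 to 0.94). The closest neighbor, *LIN7C*, 158333 bases away, was also higher in IMF (0.91, adjusted p = 0.000185, edgeR), as was *CCDC34* (0.84, adjusted p = 0.00791). Both were short of the fold-change threshold. These genes were chosen by position after the values of the 7 genes were seen.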

How the data were processed

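RNA-seq counts of 8 clones were analysed. The authors trimmed reads (Trimmomatic 0.39), aligned them to ARS-UCD2.0 and counted them per gene with featureCounts 2.0.2, and the deposited counts are whole numbers that were not normalized. The paper names HISAT2 and the submitters' processing notes name STAR 2.7.11a. The paper describes TPM, which the deposited values are not. The deposited gene length in bases was used for TPM. The authors' deposited group means and scaled mean (signal), log2 fold change, its standard error and statistic (score) and p-values were not used. A row without a gene name (0.0148% to 0.0209% of counts) was left out.

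The test of all genes was run in edgeR 4.0.16 under R 4.3.3 (TMM, quasi-likelihood test, Benjamini-Hochberg adjustment over 18339 genes with at least 20 counts, prior count 0.125). The study used DESeq2, which was an alternative here (1.42.0), as were limma-voom (limma 3.58.1), RLE, upper quartile or no size factors, no filter, at least 10 counts in 4 clones, a test with a null hypothesis of a change of up to 1 on the log2 scale, a prior count of 2, robust dispersion, a replicate block and leaving out each clone. Halving the counts of genes with only even counts was added after the data were seen. No 2 clones had identical counts. Coordinates are those of the RefSeq list of ARS-UCD2.0, in which all 7 genes were found. The smallest p of the exact permutation test over 4 and 4 clones is 0.0286. Each clone came from an SVF sample of its depot. Tissue came from fewer steers than there are clones, so both groups may hold clones of the same animal, and which clones share one is not stated.

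The genes and lists were chosen with earlier results of these data known. Named beside the 7 genes were at most 4 genes past the threshold per list with the highest mean CPM (not all of the myogenic and endothelial genes chosen in this way are reported), and the 3 genes most correlated with each of the 7 that passed. Some genes of the lists are not reported here by name.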

Additional observations from a re-analysis of the deposited data

Results flagged for a closer look

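The share of *NGFR* in the summed TPM of *NGFR* and *SORT1* was 69.8% in SF3, far from the 82.6% to 84.3% of the other 3 SF clones, by Dixon's test at 95%. Among the 17 groups of 4 values checked in this way it was the 1 that stood out, and chance alone flags about 1 group in 20.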

How the results depend on the processing

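Over the 219 values recomputed for the 7 genes, the shares and the counts, 210 kept their direction and their side of the threshold. With a null hypothesis of a change of up to 1 on the log2 scale, the genes past the threshold fell from 1618 to 631 in all, from 43 to 26 over the lists and from 4 to 2 among the 7, since *NGFR* (-1.65) and *NTRK2* (-1.74) no longer passed. With the replicate block *NTRK3* passed (log2 fold change -1.28, adjusted p = 0.0323, edgeR), which made 5 of the 7, and 1489 genes passed in all, 1356 of them among the 1618, while *CADPS2* (adjusted p = 0.0645), *DES* (0.0551) and *PI16* (0.14) lost and *EMP1* (0.0413) gained the call. No source used here says that a number marks a shared animal, and deviations of same-numbered clones correlated at 0.0548 on average (from -0.00933 to 0.139), and 4 of the 8 clones correlated best with their own number. With 1 clone left out, the difference in the *NTRK2* share ranged from -8.69 to 1.85 percentage points, turning sign without IMF4 and without SF3 (0.977), and that in the *NGFR* share from -14.1 to -8.93. For the other named genes that were recomputed, 907 of 980 values were unchanged in call and direction, 61 lost and 10 gained the call. Another 2 turned sign, both of *NTF4* (0.0020 with total counts alone, and with 1 clone left out from -0.32 to 0.0398, the latter without IMF4). The causes were not tested. The planned share of *BDNF* in *BDNF* plus *NTF3* was not run because *NTF3* was not analysed here. At this depth a level below 0.165 CPM cannot be told from 0 in SF4.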
